A study of Mus musculus with 9 samples.

Results

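The collagen gene family comprised 44 of the 19938 genes that the arrays measured with a single symbol. Members were all genes whose symbol is Col, a number, the letter a and a number, and each was read from 1 probe set, a group of short probes for one transcript. The 44 genes had 46 probe sets, because Col6a5 and Col6a6 had 2 each, and the one with the higher mean over the arrays was kept. They were divided into 8 fibrillar, 7 cartilage, 9 basement membrane and 20 other collagens.

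RNA from brain tissue was hybridised to 9 Affymetrix mouse gene arrays, with 3 arrays per group (control, model, HPYD), taken from mice after a water maze test of spatial memory. Control mice are labelled normal mice of strain C57/6J. Model and HPYD mice were APP/PS1 transgenic mice, which carry human-derived genes for the amyloid precursor protein and a presenilin and deposit amyloid-β, and the promoter and line of the transgenes are not named in the sources used here. HPYD is a peptide of 10 amino acids designed to break the β-sheets of amyloid-β. According to the methods, HPYD mice received it at 33 mg/mL through the nose, 5 μL each day for 30 days, while the model and control groups received saline, and the transgenic animals were 8 months old at purchase. Values are log2 signals as deposited, so a difference of 1 is a doubling of signal. No source states that each array held RNA of a separate mouse, so the spread behind the p-values is that between these 9 samples and may be technical.

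Collagens are proteins of the extracellular matrix made of 3 chains wound into a triple helix, and each gene encodes a chain. Fibrillar collagens assemble outside the cell into the fibers of bone, tendon, skin and the meninges. Most of the cartilage collagens form or coat the thin fibrils of cartilage. Type IV collagen forms the network on which the endothelium of brain vessels rests. Neural tissue itself holds little fibrillar collagen, which is made in the brain mainly by meningeal and perivascular fibroblasts, whereas the transmembrane collagen Col25a1 is made by neurons. Signal measured in a piece of tissue cannot tell fewer cells of a type from less RNA per cell.

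The arrays are written C1 to C3 (control), M1 to M3 (model) and H1 to H3 (HPYD), after the numbers in their labels. Some did not follow their labels or stood apart from the rest. The array labelled H3 had the App, Prnp, Xist and Kdm5d signals of the control arrays: App was 12.53 there against 12.56 to 12.62 in the controls and 12.95 to 13.02 in the other transgenic arrays. Xist, a marker of female cells, was 11.18 to 11.78 in the model arrays, H1 and H2, and 5.20 to 5.69 elsewhere. Sex and genotype therefore cannot be told apart when either group is set against control. Both also enter HPYD against model through the array labelled H3, because all model arrays had high Xist and App. M1, M2 and H2 had raised skeletal muscle, granulocyte, adipocyte and osteoblast genes. There the 12 muscle markers had a median difference from the control mean of 2.48, 4.16 and 0.89 on the log2 scale. In M3, H1 and H3 it was -0.06 to 0.07. The brain label held in all arrays, with Syt1, a neuronal synaptic vesicle protein, between 12.37 and 12.98. It was lower in M2 (12.37) and the array labelled H3 (12.40) than in the others (12.87 to 12.98). The 5 measured microglia markers had medians of -0.46 and -0.71 in these 2 arrays, against -0.09 to 0.26 in the others. Group differences of the collagens, and of the gene lists set beside them, are given without M1, M2 and H2, or without the array labelled H3, where they change.

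The upstream sequences of the 3 collagen genes whose patterns over the arrays the results turn on are shown here: Col1a2, whose signal was high in M1 and M2, Col10a1, high in M1 alone, and Col8a1, above the controls in all 6 other arrays. Each is the stretch of 250 bases before the RefSeq transcript start in GRCm38.p6, read 5′ to 3′ on the strand of the gene, at chr6:4505368-4505617 (plus strand), chr10:34389731-34389980 (plus strand) and chr16:57754738-57754987 (minus strand). Capitals mark one of 3 motifs, searched on both strands. The CCAAT box was searched by the letters of its name, and no marked motifs overlap. The TATA box was searched as TATAAA. The GC box was searched as GGGCGG.
Col1a2: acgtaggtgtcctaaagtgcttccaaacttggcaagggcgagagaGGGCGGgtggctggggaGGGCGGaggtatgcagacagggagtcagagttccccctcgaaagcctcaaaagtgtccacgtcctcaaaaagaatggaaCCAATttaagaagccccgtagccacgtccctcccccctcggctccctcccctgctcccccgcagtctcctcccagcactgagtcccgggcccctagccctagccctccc
Col10a1: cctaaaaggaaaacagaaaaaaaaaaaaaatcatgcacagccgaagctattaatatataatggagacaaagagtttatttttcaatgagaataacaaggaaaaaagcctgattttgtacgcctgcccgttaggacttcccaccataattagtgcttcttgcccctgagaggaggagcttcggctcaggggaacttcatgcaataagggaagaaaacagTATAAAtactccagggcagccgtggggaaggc
Col8a1: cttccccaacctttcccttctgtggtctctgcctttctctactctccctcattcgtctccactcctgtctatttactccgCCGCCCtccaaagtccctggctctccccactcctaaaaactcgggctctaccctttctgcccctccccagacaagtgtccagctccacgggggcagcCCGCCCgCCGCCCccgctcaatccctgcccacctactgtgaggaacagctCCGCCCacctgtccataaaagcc
The Col1a2 window was 62.0% G or C and held a CCAAT box 109 to 105 bases before the start and GC boxes at 205 to 200 and 188 to 183. The Col10a1 window was 41.6% G or C and held a TATA box 32 to 27 bases before the start. The Col8a1 window was 60.8% G or C and held 4 GC boxes, all on the opposite strand. Of 38 windows for 35 collagen genes in the table, 22 (57.9%) held a GC box, 13 (34.2%) a CCAAT box and 5 (13.2%) a TATA box, against 32.7%, 33.9% and 12.4% of all 32851 windows. A match describes the letters only.

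Over the whole family, the array medians differed more within groups than the group averages did from each other. The median difference of the 44 collagens from their control mean was 0.17 in M1, 0.16 in H2 and 0.15 in the array labelled H3. It was -0.08 and -0.05 in M2 and M3 and -0.06 in H1. The control arrays themselves lay at 0.05, 0.06 and -0.11, and the median over all genes stayed between -0.02 and 0.03 in every array. The 3 highest arrays thus came from the model and HPYD groups, and every group had at least 1 array below the mean of the controls.

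The same order was seen gene by gene. In M1, 34 of the 44 collagens lay above all 3 control arrays and 1 below, against 25.3% and 28.8% of all genes. In H2, 28 lay above and 3 below, against 29.6% and 26.4% of all genes. In the array labelled H3, 28 lay above and 5 below, against 39.6% and 27.5%. In these arrays more collagens were high than the share of all genes would give. In the other arrays fewer collagens were high than that share would give. In M2, 8 collagens lay above the controls and 18 below (30.1% and 38.0% of all genes), so its low count was near the share of all genes. In M3 there were 4 above and 14 below (19.1% and 20.9%), and in H1 there were 2 above and 18 below (20.6% and 28.1%). C3 was itself low for the family, with 6 of 44 collagens above their control mean, against 36 and 35 in C1 and C2.

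M1 held the highest value of the 9 arrays for 22 collagens (50.0%), the array labelled H3 for 12 (27.3%) and H2 for 6 (13.6%), against 8.30%, 21.3% and 10.9% of all genes. The lowest value was found in C3 and in M2 for 14 collagens each (31.8%) and in H1 for 8 (18.2%), against 11.6%, 22.8% and 10.5% of all genes. The array labelled H3 and M2 were thus often extreme for genes in general. Most of these differences were small. The range over the 9 arrays had a median of 0.45 for the collagens and 0.39 for all genes, and 26 of the 44 collagens ranged by less than 0.5, as did 65.6% of all genes. A range of 1 or more was found for Col1a1, Col1a2, Col10a1 and Col25a1, 4 of 44, against 9.16% of all genes.

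**Figure D1:**
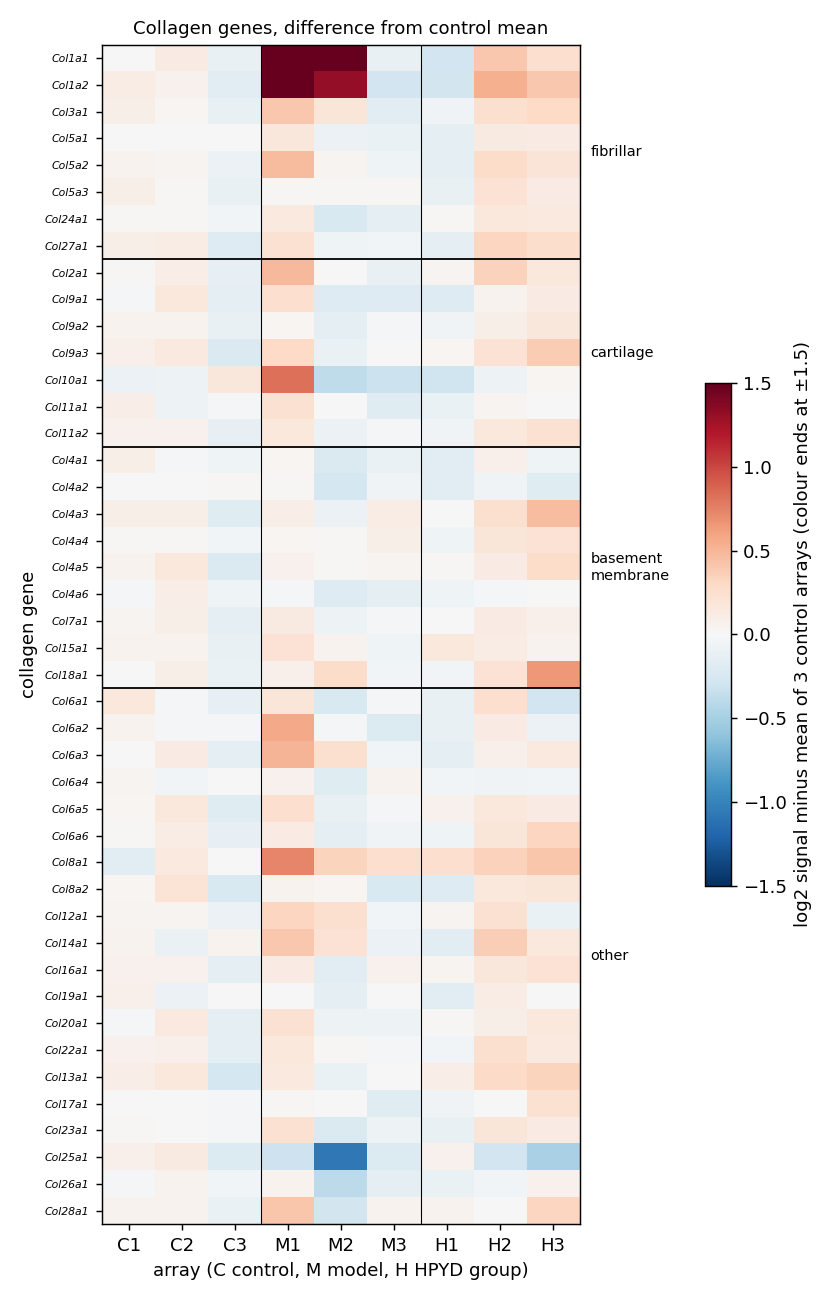
Difference of each of the 44 collagen genes (rows, by class) from the mean of the 3 control arrays, in log2 signal, for each of the 9 arrays (columns). The colour scale ends at ±1.5. The column of M1 is mostly above the control mean (42 of 44 genes), as are those of H2 (38) and the array labelled H3 (37), and the rows of Col1a1 and Col1a2 stand out in M1 and M2.

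Among the fibrillar collagens, the type I chains Col1a1 and Col1a2, which build the fibers of bone and tendon, varied most. Col1a1 was 7.83, 7.95 and 7.72 in the control arrays, 9.65, 9.34 and 7.72 in the model arrays and 7.55, 8.24 and 8.08 in the HPYD arrays. Col1a2, its partner chain in the same helix, was 7.82, 7.78 and 7.54 in the controls, 9.39, 9.03 and 7.42 in the model arrays and 7.44, 8.24 and 8.12 in the HPYD arrays. M1 and M2 were the highest for both chains, H2 and H3 came next, and M3 and H1 lay at or below the lowest control, except that Col1a1 in M3 lay just above it. The model arrays thus lay on both sides of the control range for Col1a2 and overlapped it for Col1a1.

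Col3a1, the type III chain of vessel walls and soft connective tissue, was 6.89, 6.83 and 6.69 in the controls, 7.21, 6.98 and 6.64 in the model arrays and 6.76, 7.04 and 7.10 in the HPYD arrays. Col5a2, a type V chain that joins type I fibrils and sets their width, was 6.21, 6.21 and 6.07 in C1 to C3, 6.64, 6.21 and 6.10 in M1 to M3 and 6.01, 6.44 and 6.35 in H1 to H3. Col27a1, a fibrillar collagen of developing cartilage, was 7.42, 7.44 and 7.14 in C1 to C3, 7.56, 7.27 and 7.29 in M1 to M3 and 7.20, 7.66 and 7.60 in H1 to H3. M1, H2 and H3 were above all controls for all 3 genes, by far less than the type I chains were in M1, and M2 exceeded every control for Col3a1 only. The groups overlapped for each of them.

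The other fibrillar chains, Col5a1, Col5a3 and Col24a1, ranged by 0.31 to 0.39. All 8 fibrillar collagens were above all controls in H2 and in the array labelled H3, 7 in M1, 3 in M2, and 0 in M3 and H1. Of all genes, 25.3%, 30.1% and 19.1% were above all controls in M1 to M3, and 20.6%, 29.6% and 39.6% in H1 to H3. The counts of the other classes are to be read against the same shares. The medians of the fibrillar class were 0.32, 0.03 and -0.11 in the model arrays and -0.13, 0.25 and 0.22 in the HPYD arrays. The 2 type I chains in M2 therefore stood apart from the class, whose median there was near the control mean.

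**Figure D2:**
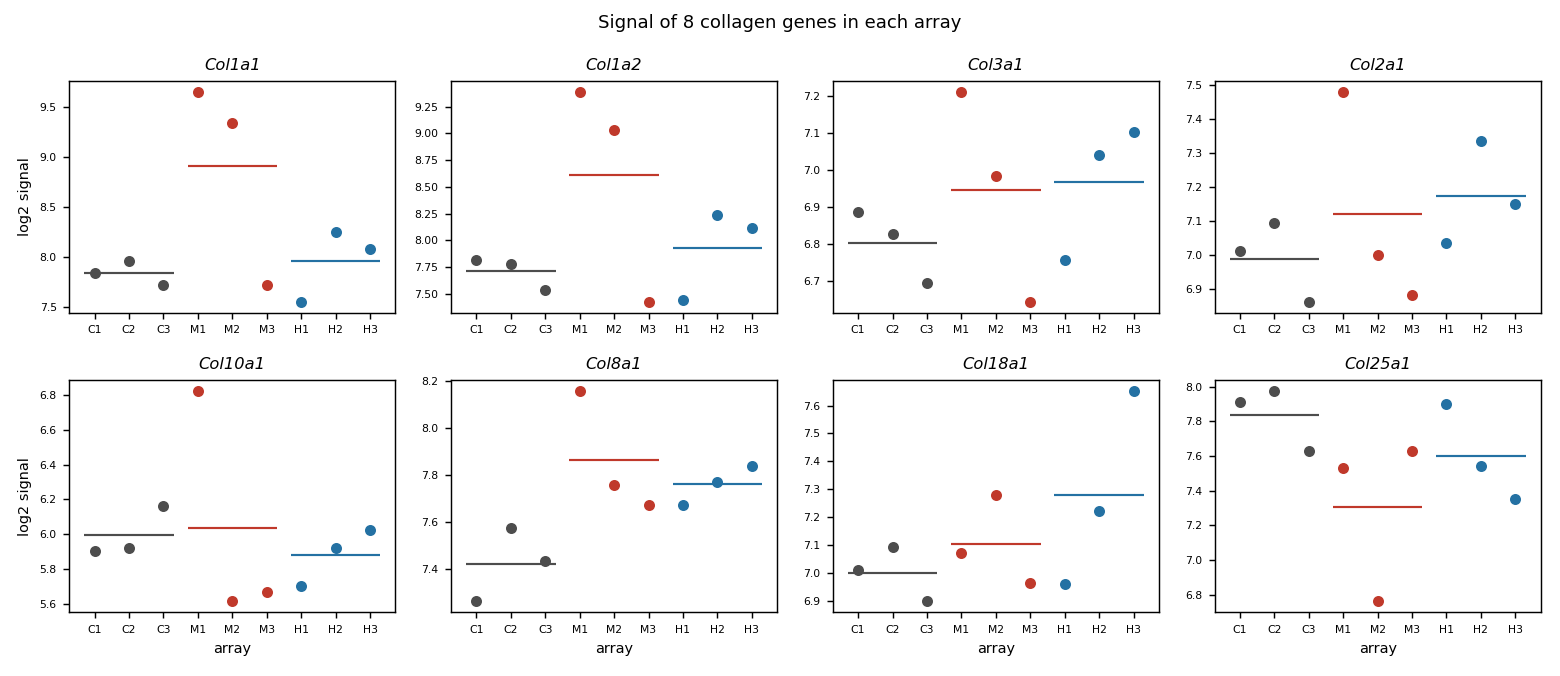
Log2 signal of 8 collagen genes in each of the 9 arrays (C control, M model, H HPYD group, points), with a horizontal line at each group mean. Col1a1 and Col1a2 are high in M1 and M2, Col10a1 in M1 alone, and Col8a1 is above the 3 control arrays in all 6 others.

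Among the cartilage collagens, Col10a1, made by enlarged chondrocytes where cartilage is turned into bone, had the widest range. Its signal was 5.90, 5.92 and 6.16 in the controls, 6.82, 5.61 and 5.67 in the model arrays and 5.70, 5.92 and 6.03 in the HPYD arrays. M1 alone stood above all other arrays, while M2, M3 and H1 were below all controls. Col10a1 was 1 of the 9 collagens that a filter on the dimmest genes would leave out.

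Col2a1, the main chain of cartilage fibrils, was 7.01, 7.09 and 6.86 in the controls, 7.48, 7.00 and 6.88 in the model arrays and 7.04, 7.33 and 7.15 in the HPYD arrays. M1 was again the highest and M2 lay within the controls, and H2 and H3 were above all controls. Col9a3, a chain of the type IX collagen that coats cartilage fibrils, was 7.80, 7.88 and 7.52 in C1 to C3, 8.03, 7.63 and 7.72 in M1 to M3 and 7.76, 7.95 and 8.12 in H1 to H3, and its partner chain Col9a1 was 6.15, 6.32 and 6.01 in C1 to C3, 6.41, 5.96 and 5.96 in M1 to M3 and 5.97, 6.22 and 6.28 in H1 to H3. Col11a1, a minor chain inside those fibrils, was 6.82, 6.64 and 6.69 in C1 to C3, 6.95, 6.72 and 6.54 in M1 to M3 and 6.62, 6.76 and 6.72 in H1 to H3. The groups overlapped for all 4, and Col9a3 was highest in the array labelled H3 rather than in M1.

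Col9a2 and Col11a2 ranged by 0.31 and 0.36. Of the 7 cartilage collagens, 6 were above all controls in M1, 4 in H2, 4 in the array labelled H3 and 0 in the other arrays. The class medians were 0.25, -0.10 and -0.11 in the model arrays and -0.06, 0.09 and 0.16 in the HPYD arrays.

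Basement membrane collagens varied least, with a median range of 0.30. Col4a1 and Col4a2, which wind together into the network under the endothelium of all vessels, were nearly level over the arrays. Col4a1 was 7.39, 7.28 and 7.24 in the controls, 7.32, 7.09 and 7.20 in the model arrays and 7.13, 7.38 and 7.24 in the HPYD arrays. Col4a2 was 7.27, 7.26 and 7.29 in C1 to C3, 7.30, 7.02 and 7.23 in M1 to M3 and 7.12, 7.23 and 7.10 in H1 to H3. Both were lowest in M2. All 3 HPYD arrays were below all 3 controls for Col4a2, as were 4.75% of all genes, and no other collagen had this order.

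Col18a1, a heparan sulfate collagen whose end piece is endostatin, had the widest range of the class. It was 7.01, 7.09 and 6.90 in the controls, 7.07, 7.28 and 6.97 in the model arrays and 6.96, 7.22 and 7.65 in the HPYD arrays. The array labelled H3 was the highest, followed by M2 and H2, and the other arrays lay within the controls. Col4a3 and Col4a5, chains best known from the kidney filter, were also highest in the array labelled H3. Col4a3 was 6.27, 6.27 and 6.01 in the controls, 6.28, 6.10 and 6.30 in the model arrays and 6.18, 6.42 and 6.65 in the HPYD arrays, and Col4a5 was 5.89, 5.98 and 5.62 in C1 to C3, 5.89, 5.85 and 5.87 in M1 to M3 and 5.85, 5.96 and 6.10 in H1 to H3. Col15a1, which lies beneath the basement membrane of vessels and muscle, was 6.81, 6.81 and 6.64 in C1 to C3, 6.97, 6.81 and 6.68 in M1 to M3 and 6.91, 6.86 and 6.81 in H1 to H3. For each of these the model and HPYD arrays overlapped the controls.

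The remaining members, Col4a4, Col4a6 and Col7a1, ranged by 0.27 to 0.29. Of the 9 basement membrane collagens, 5 were above all controls in M1, 5 in H2, 4 in the array labelled H3, 2 in M3, and 1 each in M2 and H1. The counts in M3 and the array labelled H3 were near the shares of all genes, 19.1% and 39.6%. The class medians were 0.06, -0.08 and -0.04 in the model arrays and -0.04, 0.12 and 0.08 in the HPYD arrays.

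Among the 20 other collagens, Col8a1 and Col25a1 departed most from the family pattern. Col8a1, a short-chain collagen that forms networks around vessels, was 7.26, 7.57 and 7.43 in the control arrays, 8.16, 7.76 and 7.67 in the model arrays and 7.67, 7.77 and 7.84 in the HPYD arrays. All 6 model and HPYD arrays lay above all 3 controls, the array labelled H3 included, and Col8a1 was the only collagen with this order, which 1.72% of all genes had. Its values in M3 and H1, the arrays with low fibrillar collagens, were just above the highest control. No collagen lay below all controls in all 6 arrays, as 1.88% of all genes did.

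Col25a1 is a transmembrane collagen of neurons whose shed form binds amyloid plaques. Its signal was 7.91, 7.98 and 7.63 in the controls, 7.53, 6.76 and 7.63 in the model arrays and 7.90, 7.55 and 7.35 in the HPYD arrays. M2 was the lowest, the array labelled H3 came next, and M3 and H1 lay within the controls. The neuronal gene Slc17a7, the glutamate transporter of synaptic vesicles, was also lowest in these 2 arrays, at 11.09 in M2 and 11.45 in the array labelled H3 against 11.76 to 12.40 in the others. Other neuronal markers did not share one order: Syt1 and Snap25 were lowest there too, whereas Nefl and Stmn2 were highest there. The median difference of the 7 measured neuronal markers was -0.06 in M2 and -0.03 in the array labelled H3, within the -0.08 to 0.04 of the control arrays. The part of neuronal signal in the Col25a1 values was not tested.

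The type VI chains form beaded filaments around cells, muscle fibers included. Col6a1 was 7.72, 7.54 and 7.44 in the controls, 7.75, 7.34 and 7.54 in the model arrays and 7.45, 7.82 and 7.27 in the HPYD arrays. Col6a2 was 7.23, 7.15 and 7.15 in C1 to C3, 7.75, 7.15 and 6.97 in M1 to M3 and 7.07, 7.31 and 7.09 in H1 to H3, and Col6a3 was 6.50, 6.62 and 6.36 in C1 to C3, 7.01, 6.73 and 6.45 in M1 to M3 and 6.36, 6.57 and 6.65 in H1 to H3. All 6 type VI genes were above all controls in M1, 3 in H2, 2 in the array labelled H3, 1 in M2, 1 in M3 and 0 in H1. M2 exceeded all controls for Col6a3 only, and the part of muscle RNA in the type VI values was not tested. Col28a1, a collagen of peripheral nerve sheaths, was 5.77, 5.77 and 5.61 in the controls, 6.13, 5.44 and 5.77 in the model arrays and 5.77, 5.72 and 6.04 in the HPYD arrays, with M1 highest and M2 lowest.

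The other 14 members of this class ranged by 0.25 to 0.60. They comprised Col6a4, Col6a5 and Col6a6, the short-chain Col8a2, the fibril-associated Col12a1, Col14a1, Col16a1, Col19a1, Col20a1 and Col22a1, the transmembrane Col13a1, Col17a1 and Col23a1, and Col26a1. Of all 20, 16 were above all controls in M1, 11 in H2, 12 in the array labelled H3, 4 in M2, 2 in M3 and 1 in H1.

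Neighbouring members did not always peak in the same array. The 44 genes lay on 15 chromosomes, and 8 pairs were direct neighbours among the protein-coding genes of RefSeq. The highest array was the same in 3 of the 8 pairs, Col3a1 with Col5a2, Col4a3 with Col4a4, and Col6a4 with Col6a5. The lowest array was the same in 1 pair, Col4a1 with Col4a2. The type I genes, whose values ran side by side over the 9 arrays, lie on separate chromosomes, Col1a1 on 11 and Col1a2 on 6.

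The group comparisons asked whether the family differed between transgenic and normal brain and whether the peptide moved it. In limma fits over all 19938 genes, the number of collagens with an adjusted p under 0.05 was 0 of 44 in each pair of groups, and 0% of all genes had one. At an unadjusted p under 0.05 there were 2 collagens higher and 0 lower for model against control, while 2.87% and 2.05% of all genes were higher and lower. For HPYD against model there were 0 in either direction, while 1.22% and 0.752% of all genes were higher and lower. For HPYD against control there were 1 higher and 0 lower, while 2.00% and 1.24% of all genes were higher and lower. The analysis of variance with pairwise follow-up that the methods name also called 0 collagens in each comparison. The shares of collagens were near those of all genes.

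For model against control, the collagens with an unadjusted p under 0.05 were Col1a1 and Col8a1. Col1a1 had means of 7.84 ± 0.12 in the control and 8.91 ± 1.04 in the model arrays (SD, n = 3 each), a log2 difference of 1.07 with a standard error of 0.45 and an adjusted p of 0.859 from limma. Col8a1 had means of 7.42 ± 0.16 and 7.86 ± 0.26, a log2 difference of 0.44 with a standard error of 0.13 and an adjusted p of 0.859 from limma. The lower collagen with the smallest p was Col25a1, with means of 7.84 ± 0.19 and 7.31 ± 0.47 and a log2 difference of -0.53 with a standard error of 0.24 (limma, adjusted p = 0.859). The Col1a1 difference rested on M1 and M2. Without these arrays and H2, where M3 alone stands for the model arrays and is assumed to vary like the others, it was -0.11, and those of Col8a1 and Col25a1 were 0.25 and -0.21. Without M3 it was 1.66, with an adjusted p of 0.0798 from limma.

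For HPYD against model, Col1a1 again had the smallest p, with means of 7.96 ± 0.36 in the HPYD arrays and 8.91 ± 1.04 in the model arrays (SD, n = 3 each) and a log2 difference of -0.95 with a standard error of 0.45 (limma, adjusted p = 1.00). Without M1, M2 and H2 this difference was 0.09, and without the array labelled H3 it was -1.01. Among collagens with the higher mean in the HPYD arrays, the array labelled H3 included, Col24a1, a fibrillar collagen of bone, had the smallest p. It was 6.58, 6.21 and 6.30 in the model arrays and 6.46, 6.60 and 6.59 in the HPYD arrays, a log2 difference of 0.19 with a standard error of 0.10 (limma, adjusted p = 1.00).

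For HPYD against control, Col8a1 had means of 7.76 ± 0.08 and 7.42 ± 0.16, a log2 difference of 0.34 with a standard error of 0.13 and an adjusted p of 0.860 from limma. It was 0.30 without the array labelled H3. This difference and the one for model against control share the 3 control arrays. Col4a2 had the smallest p among the lower collagens, with a log2 difference of -0.13 and a standard error of 0.08 (limma, adjusted p = 0.860), and -0.10 without the array labelled H3.

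Taken over the family, model minus control had a median log2 difference of 0.02, HPYD minus model 0.06 and HPYD minus control 0.10, against -0.01, 0.02 and 0.01 over all genes. All 3 lay within the spread of the array medians within groups, which had a pooled SD of 0.12. Without the array labelled H3 they were 0.02, 0.03 and 0.06, and without M1, M2 and H2 they were -0.05, 0.11 and 0.04. The mean was higher in the model than in the control arrays for 28 of 44 collagens (63.6%), against 45.0% of all genes. Taken array by array, 42 collagens were above their control mean in M1, 18 in M2 and 9 in M3. The count was thus 9 of 44 when M3 alone stood for the model arrays. For model against control the class medians were 0.09 for fibrillar, 0.02 for cartilage, 0.04 for basement membrane and 0.01 for other collagens.

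Genes that make, process and break down collagen were followed in the same arrays. For model against control, 2.87% of all genes were higher at an unadjusted p under 0.05 and 45.0% had the higher mean, against which the counts of these lists are to be read. Without M1, M2 and H2, M3 alone stands for the model arrays. The list medians of model minus control were then -0.02 for hydroxylation, folding and secretion, -0.06 for processing and cross-linking and -0.18 for fibril organisers. They were 0.00 for receptors, -0.07 for degradation and its inhibitors and -0.04 for basement membrane partners. The positive medians given with all arrays in 5 of the 6 lists were therefore not found in M3. Of 23 genes of collagen hydroxylation, folding and secretion, 2 had an unadjusted p under 0.05 for model against control, the lysyl hydroxylases Plod1 and Plod2, higher by 0.23 and 0.50 on the log2 scale (0.17 and 0.03 without M1, M2 and H2), and the median difference of the list was 0.04. For HPYD against control they were Plod1 and the collagen chaperone Serpinh1, higher by 0.32 and 0.43 (0.31 and 0.44 without the array labelled H3), while 2.00% of all genes were higher at that p. Creb3l1, a transcription factor that drives collagen secretion in osteoblasts, was 7.39, 7.42 and 7.11 in the controls, 8.33, 7.41 and 7.28 in the model arrays and 7.39, 7.28 and 7.55 in the HPYD arrays, high in M1 alone, as Col10a1 was. Plod2, which prepares collagen for cross-linking, was 6.22, 5.96 and 6.07 in C1 to C3, 6.89, 6.74 and 6.12 in M1 to M3 and 6.15, 6.30 and 6.51 in H1 to H3, with M1 and M2 highest. P4ha1, a subunit of prolyl hydroxylase, was 9.21, 9.21 and 9.19 in C1 to C3, 9.35, 8.80 and 9.24 in M1 to M3 and 9.62, 9.21 and 8.69 in H1 to H3, lowest in the array labelled H3 and in M2.

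Of 13 genes of collagen processing and cross-linking, 0 had an unadjusted p under 0.05 for model against control, and the list median was 0.18. Tll1, a protease that trims procollagen, was 8.36 in M2 and 8.33 in the array labelled H3, against 6.43 to 6.78 in the other 7 arrays. Lox, which cross-links fibers, was 5.63, 5.30 and 5.38 in the controls, 6.58, 5.70 and 5.65 in the model arrays and 5.43, 6.49 and 5.93 in the HPYD arrays, with M1 and H2 highest. Pcolce2, an enhancer of procollagen trimming, was 7.74, 8.26 and 7.92 in C1 to C3, 8.17, 8.66 and 8.18 in M1 to M3 and 8.98, 8.20 and 8.34 in H1 to H3, with H1 highest and the groups overlapping.

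Of 15 proteoglycans and glycoproteins that organise collagen fibrils, 13 had a higher mean in the model than in the control arrays. Without M1, M2 and H2 there were 5. The list median with all arrays was 0.29. The 2 with an unadjusted p under 0.05 were Tgfbi and Prelp, higher by 0.62 and 0.29 on the log2 scale (0.08 and 0.13 without M1, M2 and H2). Thbs1, a matrix glycoprotein also of platelets, was 7.41, 7.22 and 7.17 in the controls, 9.04, 8.86 and 7.08 in the model arrays and 7.14, 8.52 and 7.29 in the HPYD arrays. Dcn, decorin, which binds type I fibrils and is made by meningeal fibroblasts, was 10.11, 9.78 and 10.34 in C1 to C3, 11.53, 10.93 and 10.11 in M1 to M3 and 9.88, 11.22 and 10.71 in H1 to H3. Omd, a proteoglycan of bone, was 5.58, 5.65 and 5.59 in C1 to C3, 6.61, 5.86 and 5.35 in M1 to M3 and 5.46, 6.26 and 5.01 in H1 to H3. M1, M2 and H2 were the 3 highest arrays for each.

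The list of degradation genes and their inhibitors had the largest median difference of the 6 lists, 0.50 over 12 genes for model against control. It includes the inhibitors Timp1 to Timp4, which differed by 0.19, -0.14, -0.02 and 0.41. Over all 12 genes, 9 had the higher mean in the model arrays, and 5 without M1, M2 and H2. The 3 with an unadjusted p under 0.05 were the gelatinase Mmp2, the fibroblast protease Fap and Ctsk, the collagen-cutting protease of osteoclasts, higher by 0.83, 0.58 and 1.13 (0.13, 0.21 and 0.05 without M1, M2 and H2). The 7 osteoclast markers, Ctsk among them, differed by -0.71 to 1.41 for model against control, with a median of 0.10. Their array medians were 0.30, -0.06 and -0.002 in the model arrays and 0.14, 0.08 and 0.02 in the HPYD arrays. Mmp8, the collagenase of neutrophils, was 5.34, 5.60 and 5.52 in the controls, 8.82, 9.36 and 4.26 in the model arrays and 4.83, 8.60 and 5.24 in the HPYD arrays. Mmp9, a gelatinase, was 6.60, 6.60 and 6.69 in C1 to C3, 8.72, 9.18 and 6.25 in M1 to M3 and 6.07, 8.50 and 6.74 in H1 to H3, and Mmp13, the collagenase of cartilage and bone, was 5.22, 5.04 and 5.42 in C1 to C3, 7.43, 7.18 and 5.07 in M1 to M3 and 5.10, 7.12 and 5.52 in H1 to H3. In each, M1, M2 and H2 stood far above the other 6 arrays. H2 lay just below M1 and M2 for all 3, whereas its Col1a1 signal of 8.24 was well below the 9.34 of M2.

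For model against control, 10 of 10 collagen receptors had the higher mean in the model arrays (5 of 10 without M1, M2 and H2). Of these, 0 had an unadjusted p under 0.05, and the list median was 0.17. Itga2, an integrin chain that binds type I collagen, was 5.93, 6.14 and 6.10 in the controls, 6.72, 6.60 and 6.05 in the model arrays and 6.01, 6.44 and 6.19 in the HPYD arrays. Itga10, an integrin chain of chondrocytes, was 6.47, 6.49 and 6.36 in C1 to C3, 6.89, 6.68 and 6.55 in M1 to M3 and 6.62, 6.88 and 7.06 in H1 to H3. All 6 transgenic-labelled arrays were above the controls for Itga10, an order that 1.72% of all genes had. Ddr2, a receptor kinase for fibrillar collagen, was 7.69, 7.54 and 7.58 in C1 to C3, 7.95, 7.79 and 7.53 in M1 to M3 and 7.50, 8.04 and 7.46 in H1 to H3, with M1, M2 and H2 above the controls. For HPYD against control, 2 receptors had an unadjusted p under 0.05, Itga10 and Lair1, an inhibitory receptor of immune cells, higher by 0.42 and 0.30 (0.31 and 0.45 without the array labelled H3).

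Of 14 laminins and other basement membrane partners of type IV collagen, 6 had a higher mean in the model arrays (4 without M1, M2 and H2). Of the 14, 0 had an unadjusted p under 0.05, and the median was -0.02. Pxdn, the peroxidase that cross-links type IV collagen, was 8.86, 8.55 and 9.22 in the controls, 8.95, 7.89 and 9.05 in the model arrays and 8.62, 8.85 and 7.95 in the HPYD arrays, lowest in M2 and the array labelled H3. Agrn, a heparan sulfate proteoglycan, was 9.29, 9.18 and 9.42 in C1 to C3, 9.13, 8.67 and 9.32 in M1 to M3 and 9.19, 9.22 and 8.81 in H1 to H3, with the same 2 arrays lowest. Nid1, which links laminin to type IV collagen, was 7.70, 7.44 and 7.73 in C1 to C3, 7.96, 8.06 and 7.55 in M1 to M3 and 7.44, 8.12 and 8.04 in H1 to H3, and here M1, M2, H2 and the array labelled H3 were above the controls. For HPYD against model, 0 genes of these 6 lists had an unadjusted p under 0.05 in either direction.

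**Figure D3:**
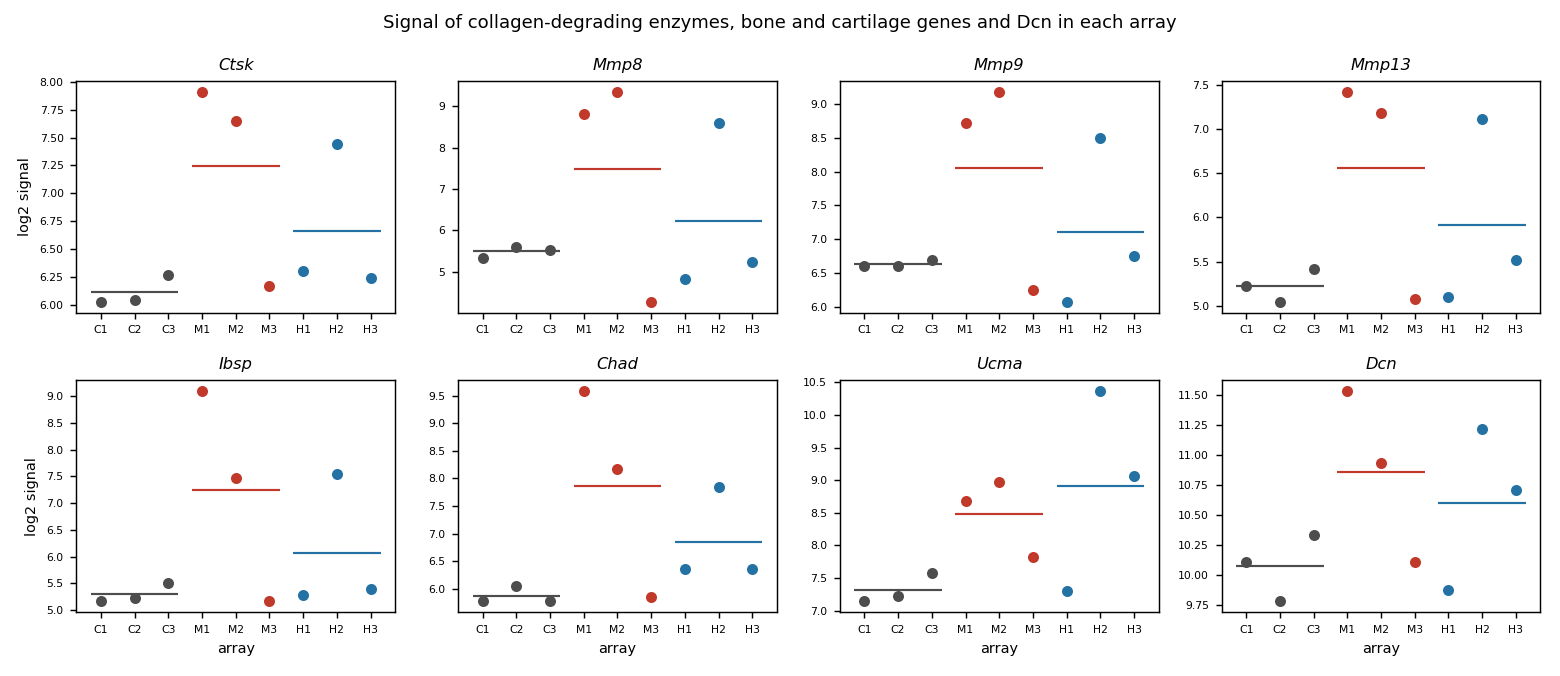
Log2 signal of 8 genes that act on collagen or mark cells rich in it, in each of the 9 arrays (C control, M model, H HPYD group, points), with a horizontal line at each group mean. M1, M2 and H2 stand above the other arrays for Mmp8, Mmp9, Mmp13 and Ibsp.

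Markers of cells that make or hold collagen were read beside the family, and their part in the collagen values was not tested. Of all genes, 25.3%, 30.1% and 19.1% were above all controls in M1 to M3. In H1 to H3 the shares were 20.6%, 29.6% and 39.6%, and the marker counts are to be read against them. In M2 the counts of the chondrocyte and fibroblast markers were near the share of all genes. Of 7 measured osteoblast markers, 7 were above all controls in M1, 6 in M2, 6 in H2, 1 in the array labelled H3 and 0 in M3 and H1. The log2 of their summed signal was 9.04 to 9.16 in the controls, 10.41, 9.72 and 9.12 in the model arrays and 9.12, 9.59 and 9.07 in the HPYD arrays. Ibsp, bone sialoprotein, was 5.16, 5.23 and 5.50 in C1 to C3, 9.10, 7.47 and 5.16 in M1 to M3 and 5.28, 7.54 and 5.40 in H1 to H3. M1 was highest for both Ibsp and Col1a1, whereas H2, level with M2 for Ibsp, was below it for Col1a1.

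Of 12 chondrocyte markers, 9 were above all controls in M1, 4 in M2, 9 in H2, 6 in the array labelled H3, 2 in M3 and 4 in H1. Their summed level was 10.60 to 10.70 in the controls, 11.51, 11.15 and 10.78 in the model arrays and 10.76, 11.69 and 11.11 in the HPYD arrays. Chad, a cartilage and bone matrix protein, was 5.78, 6.06 and 5.79 in C1 to C3, 9.59, 8.17 and 5.86 in M1 to M3 and 6.36, 7.84 and 6.36 in H1 to H3, highest in M1 as Col2a1 and Col10a1 were. Ucma, a secreted cartilage protein, was 7.14, 7.22 and 7.58 in C1 to C3, 8.68, 8.97 and 7.82 in M1 to M3 and 7.31, 10.37 and 9.07 in H1 to H3, and Epyc, a cartilage proteoglycan, was 4.79, 4.77 and 4.95 in C1 to C3, 5.36, 4.75 and 4.94 in M1 to M3 and 5.30, 6.48 and 4.81 in H1 to H3. Both were highest in H2, where Col10a1 lay at the control level (5.92).

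Of 14 meningeal and perivascular fibroblast markers, 10 were above all controls in M1, 5 in M2, 11 in H2, 7 in the array labelled H3, 0 in M3 and 1 in H1. Their summed level was 12.60 to 12.71 in the controls, 13.20, 12.85 and 12.44 in the model arrays and 12.42, 13.11 and 12.71 in the HPYD arrays. M3 and H1, the lowest here, were also the lowest for Col1a2 and Col3a1, apart from C3 for Col3a1. The medians of these markers were 0.31, 0.01 and -0.25 in the model arrays and -0.19, 0.25 and 0.02 in the HPYD arrays.

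Skeletal muscle markers were above all controls for 12 of 12 genes in M1, M2 and H2, with summed levels of 10.07 to 10.15 in the controls, 12.68, 14.30 and 10.14 in the model arrays and 10.08, 11.17 and 10.37 in the HPYD arrays. Granulocyte markers were above all controls for 10 of 10 genes in the same arrays, with summed levels of 10.64 to 11.25 in C1 to C3, 13.88, 14.16 and 9.48 in M1 to M3 and 9.72, 13.30 and 10.54 in H1 to H3. Muscle signal was highest in M2 and the collagen family in M1. The 7 measured adipocyte markers had their highest median in M1 too, with 1.77, 0.73 and -0.05 in the model arrays and -0.01, 0.43 and 0.06 in the HPYD arrays. The array labelled H3 had summed muscle and granulocyte levels of 10.37 and 10.54 and 28 collagens above all controls. Endothelial markers, which stand for the vessels that type IV collagen surrounds, had array medians between -0.05 and 0.09. The 7 choroid plexus markers differed widely within groups, the controls included. Their medians were -0.53, 1.05 and -0.52 in C1 to C3, 0.47, 1.04 and 0.71 in M1 to M3 and 0.97, -0.42 and 1.27 in H1 to H3.

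**Figure D4:**
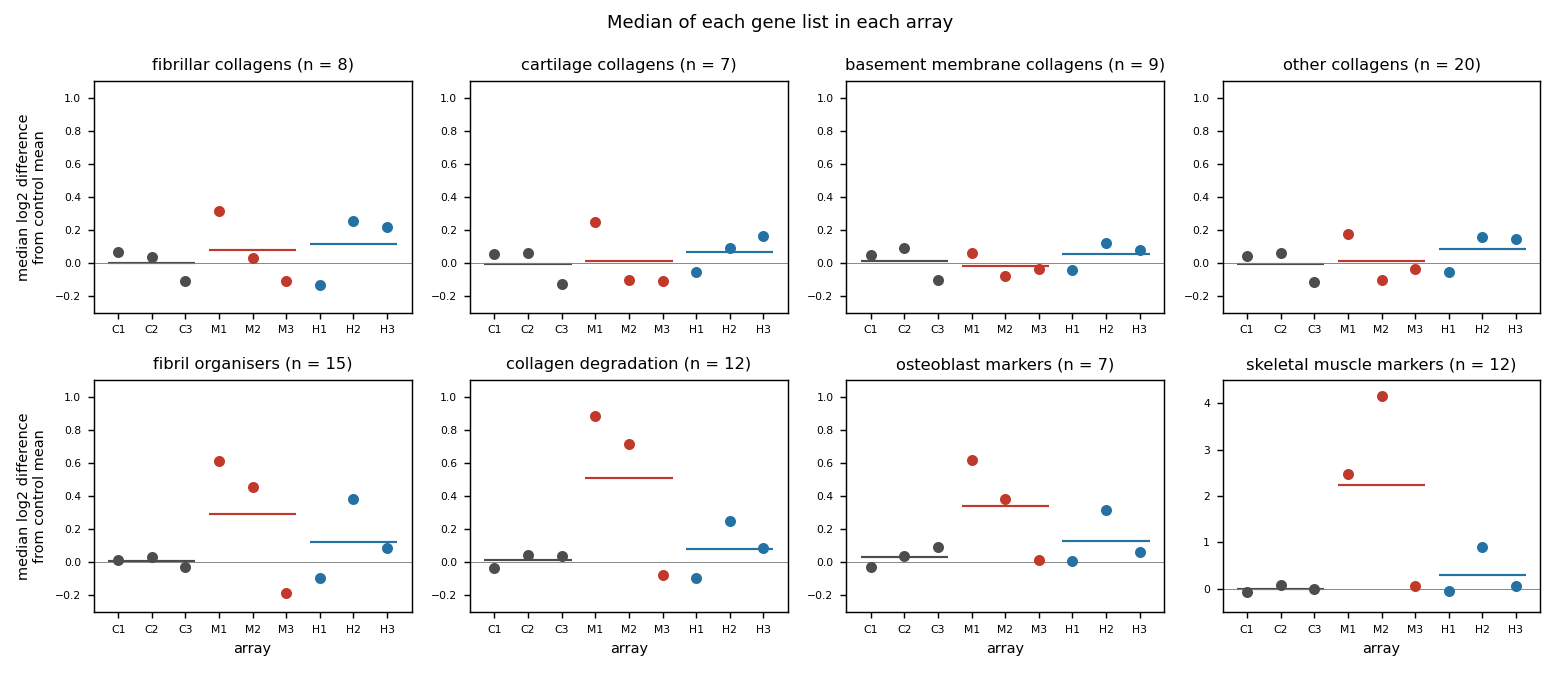
Median log2 difference from the control mean over each gene list, in each of the 9 arrays (C control, M model, H HPYD group, points), with a horizontal line at the mean of each group and the number of genes in each title. The vertical scale of the muscle panel is wider than the others. Fibrillar collagens are highest in M1, H2 and H3, whereas muscle markers are highest in M1 and M2.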

How the data were processed

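Brain RNA of 9 samples was measured, 3 per group, with groups read from the labels. The authors deposited 1 table of log2 values per probe set and array (35556 probe sets, values from 2.37 to 14.01). MAS5 appears in the submitters' processing notes, with no version. Background correction and normalization are not described further (details not given in the sources used here). The labels name Trizol and biotinylated cRNA, whereas the methods name an RNeasy kit and cDNA. No further normalization was applied, the medians of the arrays being 6.69 to 6.82.

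Gene symbols came from the annotation table of the platform, and 21789 probe sets had 1 symbol, 1621 several and 12146 none here. Only the first kind was used. Matching to RefSeq altered 0 symbols. Where a gene had more than 1 probe set (999 genes), the brightest on average stood for it. Columns left unused numbered 0. All groups entered one fit, in R 4.3.3 with limma 3.58.1 (6 residual and 2.13 prior degrees of freedom), adjusted by Benjamini-Hochberg over all 19938 genes, and the fit was tested on simulated data. The number of arrays limits the precision.

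The members, classes and gene lists were chosen with earlier results of these data known. In each class the genes named with all arrays were the 5 with the widest range, the best-known chains, Col25a1 and those at an unadjusted p under 0.05. Differences were given for the last, or else for the smallest p in each direction, and up to 3 genes of the widest range per list. Other genes with a value or name in the text were named as checks of the labels or because a count of 5 or fewer includes them. The alternatives were other normalizations, a filter on the dimmest 33.3% of genes, means over probe sets, array weights and other variance models, a fit to the compared arrays only, the replicate block, the methods' test, a looser threshold and leaving out arrays. Leaving out M1, M2 and H2 together was chosen after seeing the data. Promoter sequences came from a table of RefSeq transcript starts (GRCm38.p6) with entries for 35 of the 44 genes. All 44 were matched to RefSeq genes for their chromosomes.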

Additional observations from a re-analysis of the deposited data

How the results depend on the processing

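The count of collagens past an adjusted p under 0.05 was 0 in all 3 comparisons under every alternative run, and the family medians moved by less than 1 SD of the array medians (0.12): -0.06 to 0.07 for model against control, 0.01 to 0.14 for HPYD against model and 0.04 to 0.15 for HPYD against control. The direction turned for Col1a1 alone among the 5 collagens whose differences are given, without M1, M2 and H2: -0.11 for model against control (limma, adjusted p = 1.00) and 0.093 for HPYD against model (adjusted p = 0.991), with the ranges over all alternatives -0.11 to 1.66 and -1.54 to 0.093. The number of collagens with an unadjusted p under 0.05 ran from 1 to 6 (without M1 or M3), 0 to 3 and 0 to 5 (without H1) when 1 array was left out. With the replicate number as a block, 0 collagens passed the adjusted threshold, and 0 rather than 1 had an unadjusted p under 0.05 for HPYD against control. The numbers did not pair the arrays: the same-number correlations of deviations ran from -0.32 to 0.18, and 1 of 9 arrays correlated best with its own number. The median of the fibrillar collagens for model against control moved from 0.09 to -0.11 without the 3 arrays, and that of the basement membrane collagens from 0.04 to -0.06 without C3. In H2 the fibrillar median was 0.25, and 0.16 after quantile normalization. The filter on dim genes kept 35 of the 44 collagens, Col10a1 not among them. The causes were not tested.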

Other observations

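Exactly equal values recurred between arrays. The same value, to all deposited digits, stood in 2 or more arrays for 24 of the 44 collagens (54.5%) and for 48.5% of all genes, and in 3 or more arrays for 7 collagens. Col5a3, a type V chain picked out because of its values, had 1 value, 6.64, in 4 of the 9 arrays. The source of these ties was not tested.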
